A study of Mus musculus with 18 samples.

Results

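The genes described here are Trp53, which encodes the transcription factor p53, and 9 genes that p53 is known to switch on directly: Mdm2, Ccng1, Bax, Bbc3, Sesn1, Trp53inp1, Eda2r, Phlda3 and Zmat3. They were found by gene symbol in the deposited table, and all 10 were present among its 38046 gene symbols. All 10 also reached the mean level needed for testing, as did 12473 genes in all. Eda2r did so only through its control libraries. The study sequenced the RNA of mouse oligodendrocyte progenitor cells (OPCs), the source of oligodendrocytes, in 18 libraries of clonal lines that were derived from primary neural stem cells. There were 3 control clones (D7, D3, E8) and 3 clones null for Thap1, a zinc-finger transcription factor (3F, D6, 7F), and each was sampled as OPCs at day 0, and after 2 and 4 days of differentiation in vitro, called DIV2 and DIV4. Per the labels, OPCs were kept in growth medium with the mitogen PDGF-AA, and differentiating cells were treated with the thyroid hormone T3 at 40 μg/ml, so all groups of a stage shared the same medium and agent. Each line is a single clone, each group of genotype and stage held 3 libraries with 1 library per clone, and the labels do not say how the null clones were made.

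p53 is held low in unstressed cells because MDM2, the product of one of its own target genes, marks it for destruction. DNA damage, loss of ribosome balance and other stresses break that hold, and p53 then raises transcription of genes that stop the cell cycle, trigger cell death, change metabolism or feed back on p53 itself. Much of this control acts on the p53 protein, so the level of Trp53 RNA and the RNA levels of its targets need not move together. Lines kept in culture can gain or lose p53 activity during cloning, and the target genes are commonly read as a measure of that activity in a line.

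Promoter windows of 300 bases, from 250 bases before to 50 after the transcription start in RefSeq on GRCm38.p6, were found for 8 of the 10 genes, which have 11 windows in all. Trp53inp1 and Zmat3 were not matched. A p53 response element is a pair of decamers, each with a fixed C and G at its core, set apart by 0 to 13 bases. With up to 1 mismatch allowed in each decamer outside that core, and both strands searched, 1 of the 11 windows held a full element, and 2.71% of 32851 RefSeq promoter windows did. That window was of Ccng1, and its element begins 195 bases upstream of the start, at chr11:40755462-40755481 on the minus strand. The whole Ccng1 window (chr11:40755237-40755536, minus strand) is shown, with the element in capitals, together with that of Eda2r (chrX:97377160-97377459, minus strand), the gene with the largest difference between genotypes, in which no element was found.
Ccng1: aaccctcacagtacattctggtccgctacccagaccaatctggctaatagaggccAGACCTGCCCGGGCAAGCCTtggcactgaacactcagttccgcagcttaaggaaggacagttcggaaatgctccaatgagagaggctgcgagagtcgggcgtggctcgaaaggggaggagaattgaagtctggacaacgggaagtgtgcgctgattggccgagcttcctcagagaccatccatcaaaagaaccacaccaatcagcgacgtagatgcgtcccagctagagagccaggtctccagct
Eda2r: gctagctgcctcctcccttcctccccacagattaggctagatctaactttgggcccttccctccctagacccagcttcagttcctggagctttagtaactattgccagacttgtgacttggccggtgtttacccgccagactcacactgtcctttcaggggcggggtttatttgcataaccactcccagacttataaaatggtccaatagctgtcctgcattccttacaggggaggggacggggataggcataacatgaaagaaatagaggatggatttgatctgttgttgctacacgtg

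A single decamer with no mismatch was present in 5 of the 11 windows, 1 each of Trp53, Mdm2, Ccng1, Bax and Sesn1, and in 8.36% of all windows. The decamers of the 4 genes without a full element are shown in capitals with their flanks.
Trp53: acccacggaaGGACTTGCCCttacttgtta
Mdm2: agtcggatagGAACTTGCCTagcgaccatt
Bax: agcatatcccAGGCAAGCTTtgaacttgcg
Sesn1: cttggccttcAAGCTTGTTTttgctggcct
For comparison, the upstream window of Cdkn1a, the best known p53 target, held an element without mismatch, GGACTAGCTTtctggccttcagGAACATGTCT, at chr17:29090906-29090937, and 0.0731% of all windows held such an element. These are matches of letters in short windows, and an element further away, such as in an intron, was not searched for.

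Sequencing depth cannot be read from TPM, so precision rests on the spread between libraries. For each gene the fit to groups took 1 estimate of the spread within groups from all 18 libraries. Its p-values thus do not measure the spread of only the groups compared. That fit treated the 3 libraries of a clone as independent, and fits with clone as a replicate block are given as alternatives. Noncoding RNA filled most of the deposited control OPC libraries. In them 3 noncoding features held 64.8 to 88% of TPM, against 0.359 to 34.8% in the other 15 libraries. Protein-coding transcripts held 5.05 to 9% of TPM in control OPCs, against 19.1 to 38.8% in the other 15 libraries. The deposited TPM of the median gene was therefore higher in null than in control OPCs by 1.50 on the log2 scale. For this reason TPM was rescaled within each library to a common median ratio across genes, which brought that shift to 0.04, and all values below are rescaled TPM unless called deposited. The control E8 OPC library had the lowest scaling factor (0.125), and the calls of members lost without it, and changes that it moves most, are given beside them. Protein-coding Thap1 transcripts had 4.06 ± 0.591 rescaled TPM in OPCs of control clones and 0.619 ± 0.149 in those of null clones (SD, n = 3), and the null clones were as low at the later stages. The sum of all Thap1 transcripts, coding or not, went the other way: it was higher in null than in control OPCs by a log2 change of 0.75 (adjusted p = 0.0346), and by 0.685 at DIV2 (adjusted p = 0.114).

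At DIV4 Trp53 RNA was higher in null than in control clones, while 5 of its targets, Ccng1, Bax, Trp53inp1, Eda2r and Phlda3, were lower. Trp53 was also higher at DIV2 and had nearly the same mean in OPCs of both genotypes. That near equality rested on control clone D3, which was below every null clone, while D7 and E8 were above them. In OPCs Mdm2, Ccng1, Bax and Eda2r were lower in null clones, of which Mdm2, Ccng1 and Bax were higher in the deposited TPM before rescaling. Bbc3, Sesn1 and Zmat3 passed the test at no stage, and no target was called higher in null clones on the rescaled scale.

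**Figure D1:**
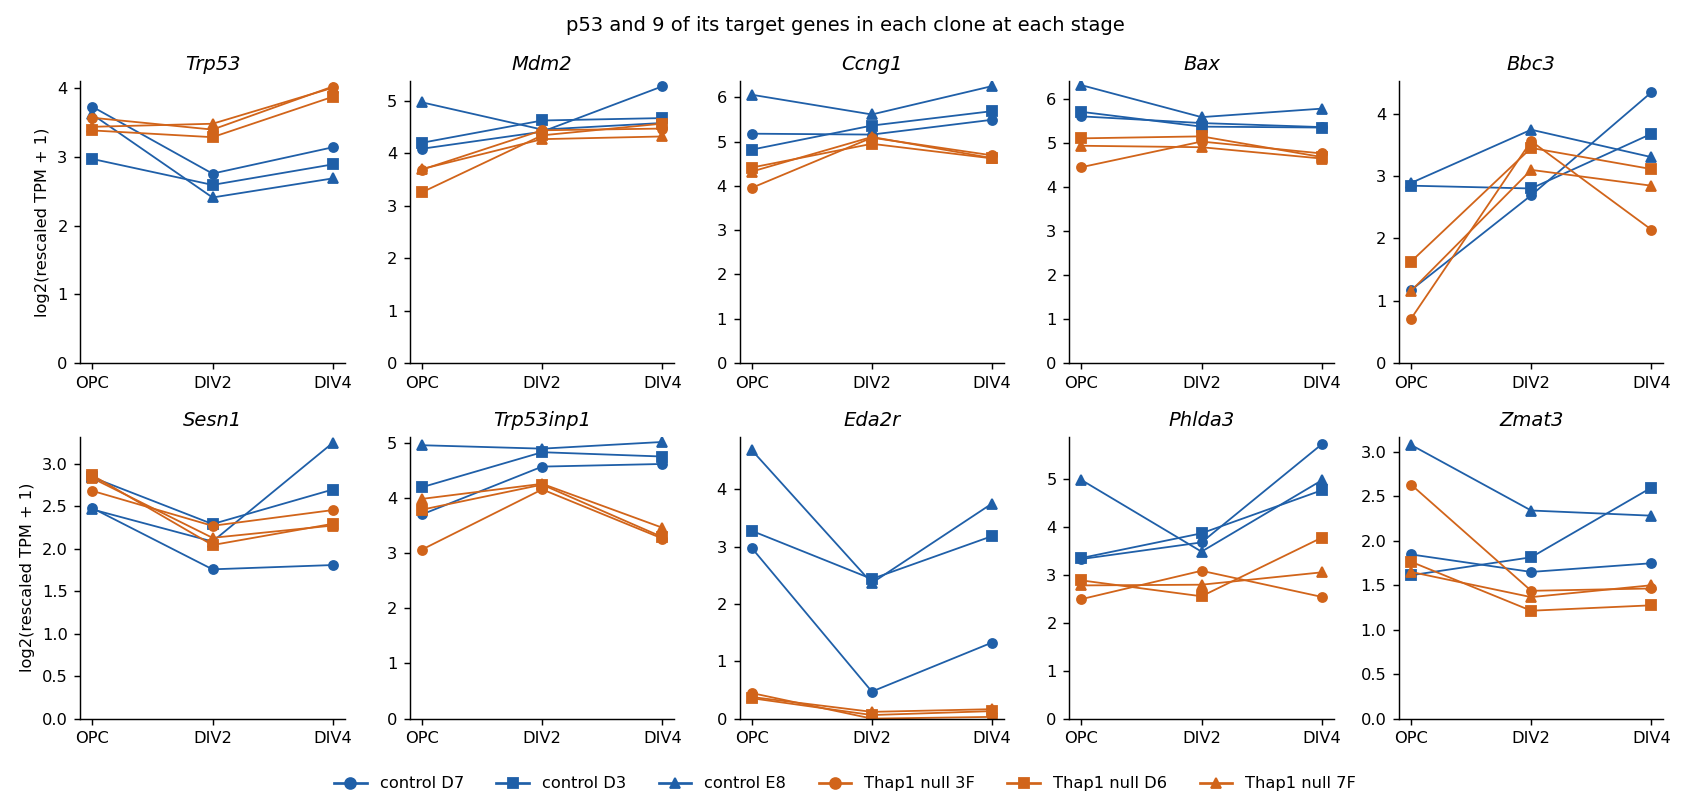
Level of each gene, as log2(rescaled TPM + 1), in each of the 6 clones at the 3 stages, with lines joining the libraries of a clone. Control clones are blue and Thap1 null clones orange. The null lines for Bax and Eda2r lie below every control library at all stages on this rescaled scale, whereas the lines for Trp53 separate only at DIV2 and DIV4, with the null clones above.

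Trp53 (chr11:69580359-69591873, plus strand) had the following levels, always listed as control clones D7, D3 and E8 and then null clones 3F, D6 and 7F. In OPCs it was at 12.3, 6.85 and 11.3 rescaled TPM in control and 10.9, 9.47 and 9.86 in null clones. At DIV2 it was at 5.77, 5.04 and 4.32 in control and 9.56, 8.78 and 10.2 in null clones. At DIV4 it was at 7.83, 6.43 and 5.45 in control and 15.3, 13.7 and 15.1 in null clones. The OPC groups thus overlapped, with control clone D3 below every null clone and control clones D7 and E8 above them. At both later stages every null clone was above every control clone. The null minus control difference in log2(rescaled TPM + 1) was 0.03 in OPCs (SE 0.176, adjusted p = 0.95, limma with Benjamini-Hochberg adjustment over all genes, as everywhere below). It was 0.80 at DIV2 (SE 0.176, adjusted p = 0.0231) and 1.06 at DIV4 (SE 0.176, adjusted p = 0.00315). By group mean the order from low to high was control DIV2 (5.04 ± 0.725), control DIV4 (6.57 ± 1.2), null DIV2 (9.51 ± 0.702), null OPC (10.1 ± 0.764), control OPC (10.2 ± 2.92) and null DIV4 (14.7 ± 0.92 rescaled TPM, SD, n = 3 each). The change between the 2 lowest groups did not pass the test (adjusted p = 0.59), nor did those between null DIV2 and null OPC (adjusted p = 0.788) and between null and control OPC. The steps from control DIV4 to null DIV2 and from control OPC to null DIV4 were not compared. Trp53 shares 10.2% of its 31-base words with other genes, most with the pseudogene Trp53-ps, so its value is uncertain to that extent. The pseudogene itself was listed at 0 in every library.

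The genes that feed back on p53 were Mdm2 and Ccng1. Mdm2 (chr10:117688875-117710758, minus strand), the ubiquitin ligase that removes p53, was at 16, 17.4 and 30.4 rescaled TPM in control and 11.9, 8.56 and 12 in null OPCs. All 3 null clones lay below the control clones, by a log2 change of -0.87 (SE 0.222, adjusted p = 0.0214). Without the E8 OPC library the change was -0.59, with an adjusted p of 0.0795. At DIV2 Mdm2 stood at 20.3, 23.7 and 20.9 in control and 20.7, 19.3 and 18.3 in null clones, which overlapped. At DIV4 the values were 37.8, 24.5 and 22.9 in control and 21.2, 22.7 and 19 in null clones, which did not overlap, but the change of -0.39 (SE 0.222) did not pass the test (adjusted p = 0.356). Protein-coding transcripts made up 50.1% of the Mdm2 value over all libraries, and its sum of coding transcripts was 8.84 ± 2.02 in OPCs of control clones and 4.91 ± 0.441 in those of null clones (SD, n = 3). At DIV4 that coding sum was 16.5, 12.2 and 10.4 in control and 11.8, 12.3 and 11.2 in null clones, which overlapped.

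Ccng1 (chr11:40748552-40755311, minus strand) encodes cyclin G1, which helps MDM2 to act on p53. It was at 35.2, 27.2 and 65.6 rescaled TPM in control and 14.5, 20.3 and 19 in null OPCs. Every null clone was below every control clone, and the log2 change was -1.12 (SE 0.262, adjusted p = 0.0135), or -0.77 without the E8 OPC library (adjusted p = 0.0428). At DIV2 the level was at 34.7, 40.1 and 47.9 in control and 33, 29.9 and 33.4 in null clones, close to each other without overlapping (-0.33, SE 0.262, adjusted p = 0.622). At DIV4 it stood at 44, 50.5 and 75.2 in control and 24.8, 23.6 and 23.7 in null clones, so that the lowest control clone was well above the highest null clone (-1.16, SE 0.262, adjusted p = 0.0211).

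The members that act in cell death were Bax, Bbc3 and Eda2r. Bax (chr7:45461697-45466898, minus strand), whose protein opens the outer mitochondrial membrane, was at 47.8, 51.4 and 78.8 rescaled TPM in control and 20.9, 33.5 and 29.7 in null OPCs. By DIV2 it was at 42.9, 40.5 and 47.2 in control and 31.8, 34.6 and 29 in null clones. At DIV4 it was at 40.2, 39.9 and 54.1 in control and 26.2, 24.7 and 24.1 in null clones. Every one of the 9 null libraries was below every one of the 9 control libraries. The log2 change was -1.05 in OPCs (SE 0.195, adjusted p = 0.00402), -0.44 at DIV2 (SE 0.195, adjusted p = 0.311) and -0.80 at DIV4 (SE 0.195, adjusted p = 0.0314). Bax shares 11.1% of its 31-base words with other genes, most with the overlapping gene Gm45808 on the same strand, so the Bax value is uncertain to that extent. No transcript was listed under the symbol Gm45808 among the deposited values.

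Eda2r (chrX:97333840-97377216, minus strand), a receptor of the tumour necrosis factor family, had the largest difference between genotypes of the 10 genes. In OPCs it was at 6.9, 8.71 and 24.8 rescaled TPM in control and 0.363, 0.28 and 0.299 in null clones. At DIV2 it stood at 0.387, 4.42 and 4.16 in control clones, was listed at 0 in null clone 3F, and was at 0.0441 and 0.0851 in null clones D6 and 7F. At DIV4 it stood at 1.51, 8.1 and 12.5 in control and 0.0211, 0.0949 and 0.121 in null clones. Null clones were thus near 0 at each stage and never reached the lowest control library, which was control D7 at DIV2. The highest null library, 3F as OPCs, was at 0.363, close to the 0.387 of that control library. Null group means were 0.314 in OPCs, 0.043 at DIV2 and 0.079 at DIV4. Eda2r thus met the testing threshold, a mean of at least 1, only through the control clones. Its calls and its place in the counts below depend on that. The log2 change was -3.26 in OPCs (SE 0.595, adjusted p = 0.00351), -1.70 at DIV2 (SE 0.595, adjusted p = 0.176) and -2.65 at DIV4 (SE 0.595, adjusted p = 0.0211). A log2 change of value plus 1 understates the ratio for values this close to 0. Control clone E8 had the highest level at 2 stages and its OPC value was the highest of all, yet without the E8 OPC library the OPC change was still called (-2.74, adjusted p = 0.0184).

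Bbc3 (chr7:16308393-16318205, plus strand) encodes PUMA, which releases BAX from its inhibitors. It was at 1.25, 6.19 and 6.41 rescaled TPM in control and 0.636, 2.09 and 1.23 in null OPCs. On day 2 it was at 5.46, 5.97 and 12.4 in control and 10.8, 9.94 and 7.57 in null clones, and at DIV4 at 19.3, 11.8 and 8.88 in control and 3.41, 7.65 and 6.19 in null clones. The groups overlapped in OPCs, where control D7 was as low as the null clones, and at DIV2, but not at DIV4. The log2 changes of -1.14 in OPCs (adjusted p = 0.11), 0.29 at DIV2 (adjusted p = 0.845) and -1.08 at DIV4 (adjusted p = 0.188, SE 0.447 each) did not pass the test.

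The other targets act on growth signalling, stress handling and RNA. Phlda3 (chr1:135766119-135769136, plus strand), whose product keeps the growth kinase AKT from the membrane, was at 9.06, 9.21 and 30.6 rescaled TPM in control and 4.63, 6.39 and 5.87 in null OPCs. At DIV2 it was at 11.8, 13.6 and 10.2 in control and 7.49, 4.87 and 5.94 in null clones, and at DIV4 at 51.9, 26.2 and 30.4 in control and 4.82, 12.7 and 7.3 in null clones. At each of the 3 stages every null clone was below every control clone. The log2 change passed the test at DIV4 (-2.03, SE 0.401, adjusted p = 0.01) but not in OPCs (-1.17, SE 0.401, adjusted p = 0.0722) or at DIV2 (-0.87, SE 0.401, adjusted p = 0.334). Among control OPCs E8 was far above the other clones, and without that library the OPC change was -0.62 (adjusted p = 0.261).

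Trp53inp1 (chr4:11156431-11174379, plus strand) encodes a stress protein that promotes p53 phosphorylation and autophagy. It was at 12, 17.3 and 30 rescaled TPM in control and 7.36, 12.8 and 14.8 in null OPCs, which overlapped (-0.67, SE 0.268, adjusted p = 0.115, and -0.33 without the E8 OPC library). At DIV2 the level was at 22.7, 27.4 and 28.7 in control and 16.8, 17.9 and 18.1 in null clones, without overlap (-0.55, SE 0.268, adjusted p = 0.372). At DIV4 it was at 23.5, 25.9 and 31.3 in control and 8.6, 8.78 and 10 in null clones. The 3 null clones were there within a narrow range, far below the controls, and the log2 change was -1.45 (SE 0.268, adjusted p = 0.00683). Coding transcripts made up 49.8% of its value.

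Sesn1 (chr10:41809935-41908424, plus strand), a sestrin that restrains the growth kinase mTORC1, differed little between genotypes. It was at 4.57, 6.16 and 4.51 rescaled TPM in control and 5.41, 6.28 and 6.11 in null OPCs. By DIV2 it was at 2.38, 3.89 and 3.24 in control and 3.82, 3.12 and 3.37 in null clones, and at DIV4 at 2.5, 5.48 and 8.48 in control and 4.48, 3.9 and 3.83 in null clones. The groups overlapped at every stage, and the log2 changes were 0.20, 0.10 and -0.24 (SE 0.262 each, adjusted p = 0.659, 0.92 and 0.665). It overlaps another annotated gene on the same strand but shares none of its 31-base words with other genes.

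Zmat3 (chr3:32334792-32366014, minus strand), which encodes an RNA-binding zinc-finger protein, was among the lowest members. In OPCs it was at 2.6, 2.06 and 7.46 rescaled TPM in control and 5.21, 2.4 and 2.14 in null clones, with full overlap. At DIV2 it stood at 2.14, 2.52 and 4.07 in control and 1.71, 1.32 and 1.58 in null clones, and at DIV4 at 2.36, 5.06 and 3.87 in control and 1.76, 1.42 and 1.83 in null clones. The null clones were below the control clones at both later stages, but the log2 changes of -0.16, -0.60 and -0.80 (SE 0.353 each) did not pass the test (adjusted p = 0.802, 0.471 and 0.217). Without the E8 OPC library the OPC change turned to 0.29 (adjusted p = 0.6).

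Counted over the 10 genes, 4 were called in OPCs, all lower in null clones, where 12% of all genes tested were called (5.94% lower and 6.02% higher). At DIV2 only Trp53 was called, higher in null clones, against 2.80% of all genes. At DIV4 6 were called, Trp53 higher and 5 targets lower, against 4.81% of all genes (2.12% lower and 2.69% higher). The median change over the 10 genes was -0.96 in OPCs, -0.39 at DIV2 and -0.94 at DIV4, beside 0.04, 0 and -0.01 over all genes. Without the E8 OPC library the OPC median was -0.61, and 3 members (Ccng1, Bax and Eda2r) were called there, where 7.52% of all genes were. The members' share called was above that of all genes at all 3 stages, and at DIV2 it rested on Trp53 alone.

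**Figure D2:**
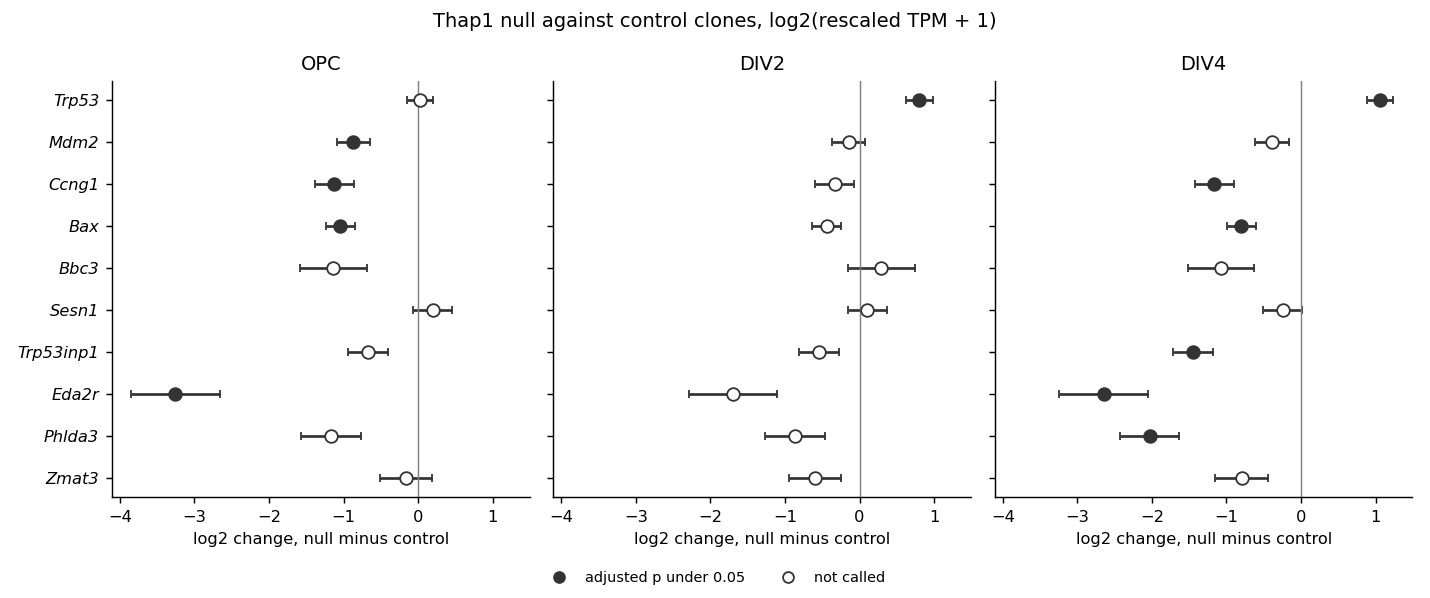
Null minus control change of each gene in log2(rescaled TPM + 1) at the 3 stages, with bars of 1 SE from the fit to all 18 libraries. Filled points passed an adjusted p of 0.05. The points of most targets lie left of 0 in OPCs and at DIV4 and nearer to 0 at DIV2, and Trp53 alone lies right of 0 among the filled points; the OPC positions depend on the rescaling, as the plot of both scalings shows.

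Groups that do not overlap were also counted. Every null clone was below every control clone for 5 of the 10 genes in OPCs (12.4% of all genes), for 6 at DIV2 (15.8%) and for 8 at DIV4 (13.3%). Those 8 were all targets but Sesn1, and Mdm2 was not among them when only its coding transcripts were summed. Trp53 was the only member with every null clone above, at DIV2 (15.1% of all genes) and DIV4 (13.4%), and no member was in OPCs (12.8%). Taking all 9 libraries of a genotype, Bax and Eda2r were the members with every null library below every control library, a pattern found in 0.513% of all genes. No member had the opposite pattern (0.609%). Eda2r was among the genes tested only through its control libraries. In the comparison of the 6 clone means over the 3 stages, which uses the same libraries again, Mdm2 (-0.47, SE 0.09, adjusted p = 0.0485), Bax (-0.76, SE 0.144, adjusted p = 0.0462), Eda2r (-2.54, SE 0.481, adjusted p = 0.047) and Phlda3 (-1.36, SE 0.156, adjusted p = 0.0111) were called lower, against 3.42% of all genes called (1.40% lower). Trp53 was 0.63 higher there with an adjusted p of 0.0522.

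Several of these calls were lost when a single clone was left out, among all genes as well as among the members. Such a fit has fewer libraries, so a lost call alone does not show that the clone carried the difference. Without null clone 7F none of the 10 genes passed the test at DIV4, where the calls over all genes went from 600 to 103. The 6 members called at DIV4 kept their directions there, with Trp53 at 1.04 (adjusted p = 0.0597) and Trp53inp1 at -1.52 (adjusted p = 0.0515). Without null clones 3F or D6, 2 and 3 members remained called at DIV4, and the calls over all genes were 172 and 366. Without control clones D7, D3 or E8 there were 6, 5 and 4 members called, beside 893, 1085 and 433 calls over all genes. In OPCs 2 members were called without 3F or without 7F, 3 without D6 or without E8, 5 without D3 and 7 without D7. The calls over all genes in OPCs were 1492 with every clone, 336 without 7F, 697 without 3F, 905 without D6, 756 without E8, 2155 without D3 and 2362 without D7. A fit to only the 6 libraries compared called 1 member in OPCs and 2 at DIV4, and its calls over all genes are not given.

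**Figure D3:**
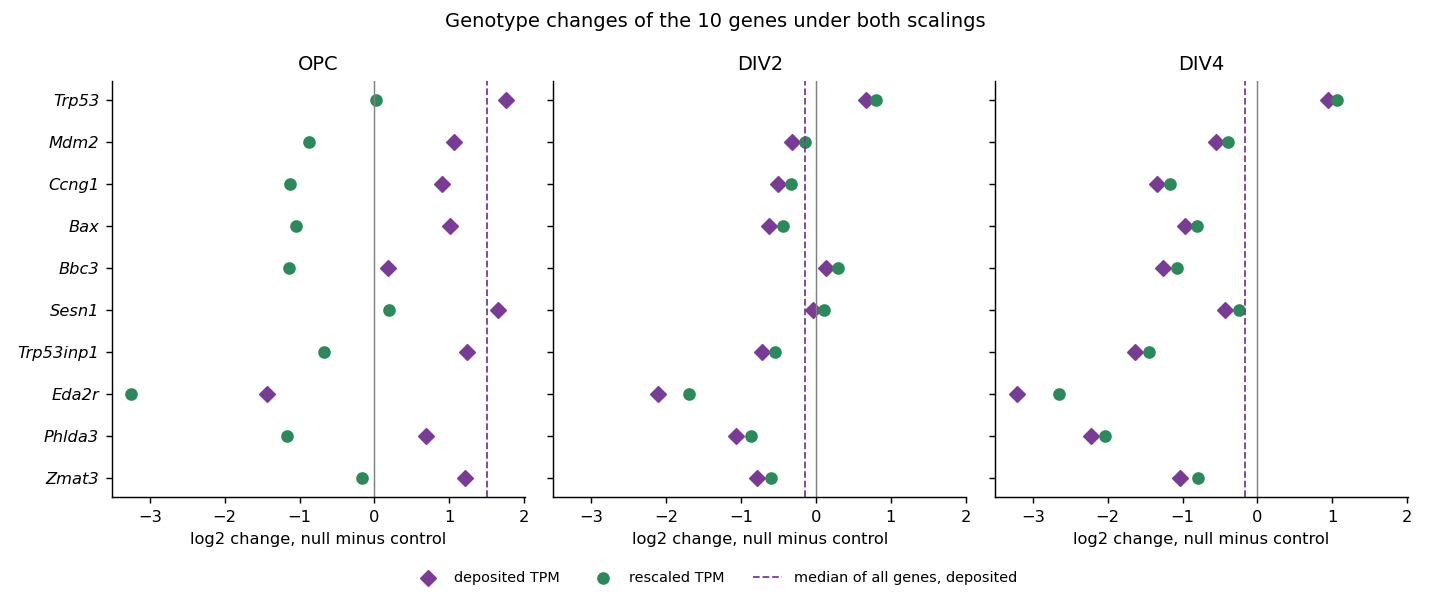
Null minus control change of each gene at the 3 stages from rescaled TPM (circles) and deposited TPM (diamonds), both as log2(value + 1). The dashed line is the median change of all genes in deposited TPM, which lies at 1.50 in OPCs; most targets lie right of 0 and left of that line there, and apart from Eda2r both scalings lie close together at DIV2 and DIV4.

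In OPCs the sign of most members depended on the scaling. In deposited TPM 7 members were called, where 81.0% of all genes were, and all 7 were higher in null OPCs, as were 80.7% of all genes. Mdm2, Ccng1 and Bax were among them, at 1.07, 0.91 and 1.01. Set against the median gene's 1.50, the same deposited values gave -0.44 for Mdm2, -0.60 for Ccng1, -0.49 for Bax and -2.94 for Eda2r. Here and below, that step is close to the rescaling itself and is no separate check of it. Eda2r was the only target with a negative change in null OPCs on both scales, although its deposited change of -1.44 had an adjusted p of 0.0613. With TPM of protein-coding transcripts scaled to a common sum, Mdm2 was -0.38 in OPCs with an adjusted p of 0.156. At DIV4 the scalings gave the same direction for all 6 called genes, and Trp53inp1, Eda2r and Phlda3 also passed the test in deposited TPM, where 2.78% of all genes did.

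Trp53 was lower at DIV4 than in OPCs in control clones and higher in null clones. In each control clone its level was lowest at DIV2. From OPC to DIV4 it changed by -0.54 in control (SE 0.176, adjusted p = 0.0311) and by 0.50 in null clones (SE 0.176, adjusted p = 0.0398) on the rescaled scale. In each of the 3 control clones the DIV4 library was below the OPC library, though by little in D3 (6.43 against 6.85 rescaled TPM). In each of the 3 null clones the DIV4 library was above. The difference between these changes was 1.04 (SE 0.249, adjusted p = 0.0408), and Trp53 was the only member for which this difference passed the test, against 2.79% of all genes. The control decline was -0.45 without the E8 OPC library (adjusted p = 0.105). It was 0.03 with protein-coding TPM. With deposited TPM it was 1.77, where the median gene rose by 2.015, so that Trp53 was at -0.25 relative to the median gene. The difference itself was 0.95 without the E8 OPC library (adjusted p = 0.0802), 0.88 with protein-coding TPM (adjusted p = 0.117) and -0.815 in deposited TPM, where the median gene's was -1.68 and Trp53 relative to it was at 0.86. The rise in null clones was 0.47 to 0.53 when each null clone was left out, with no call.

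Other members also moved with stage. In control clones, Bbc3 rose by 1.48 (SE 0.447, adjusted p = 0.0216) and Phlda3 by 1.27 (SE 0.401, adjusted p = 0.0261) from OPC to DIV4, and 3 of the 10 members were called against 32.2% of all genes. Both calls rested on control clone D7, without which the changes were 0.62 and 0.70. Without the E8 OPC library 5 members were called, against 26.4% of all genes. All 5 were higher at DIV4: Mdm2 (0.70, adjusted p = 0.0177), Ccng1 (0.81, adjusted p = 0.0135), Bbc3, Trp53inp1 (0.85, adjusted p = 0.0177) and Phlda3. From OPC to DIV2 in control clones, Trp53 (-0.86, SE 0.176, adjusted p = 0.0021) and Eda2r (-1.89, SE 0.595, adjusted p = 0.0237) were lower, against 35.0% of all genes. In deposited TPM both were higher at DIV2, by 1.40 and 0.345, where the median gene was higher by 1.96, so that relative to it they were at -0.56 and -1.615. Without the E8 OPC library Eda2r was not called (-1.37, adjusted p = 0.111). In null clones Mdm2 rose from OPC to DIV2 by 0.80 (SE 0.222, adjusted p = 0.0147), Ccng1 by 0.82 (SE 0.262, adjusted p = 0.0303) and Bbc3 by 2.21 (SE 0.447, adjusted p = 0.00228), against 27.9% of all genes. With clone as a fixed replicate block these 3 and also Trp53inp1 (0.605, adjusted p = 0.0406) and Sesn1 (-0.64, adjusted p = 0.0476) were called, for which no share of all genes is given. Mdm2 and Bbc3 were also higher at DIV4 than in OPCs there, by 0.90 (adjusted p = 0.00607) and 1.54 (adjusted p = 0.0161), against 33.3% of all genes. The DIV2 and DIV4 comparisons share the OPC libraries. With all 18 libraries and no block, the share of members called was near or below that of all genes in each of these stage comparisons. Without the E8 OPC library it was above that share from OPC to DIV4 in control clones.

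Between DIV2 and DIV4 limma called none of the members in either genotype. At an unadjusted p under 0.05 there was 1 in control clones (Phlda3, 1.48, adjusted p = 0.156) and 2 in null clones (Trp53, 0.58, and Trp53inp1, -0.88), and 0.233% and 2.10% of all genes were called. With clone as a fixed replicate block Trp53inp1 was called in null clones (-0.88, adjusted p = 0.039). The changes from OPC to DIV2 differed between genotypes for none of the members either, with 5 at an unadjusted p under 0.05 (Trp53, Mdm2, Ccng1, Bax and Bbc3, all with the higher change in null clones) and 0.465% of all genes called. In deposited TPM 8 members were called in that comparison, where 72.6% of all genes were. For the change from DIV2 to DIV4 the count by limma was also 0 of 10, with 3 at an unadjusted p under 0.05 (Ccng1, Bbc3 and Trp53inp1), and 0.0241% of all genes were called.

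The clones of a genotype were compared with each other over the 3 stages. Among control clones Eda2r differed (range of clone effects 2.01 on the log2 scale, F test in limma, adjusted p = 0.0112), with D7 the lowest at every stage, against 4.62% of all genes. The call was lost without DIV2 (adjusted p = 0.25) or without DIV4 (adjusted p = 0.305), each of which leaves fewer libraries. Ccng1 came next among control clones, with E8 the highest at every stage (range 0.70, adjusted p = 0.0611). Among null clones no member was called and none had an unadjusted p under 0.05, where 0.946% of all genes were called and the median member range was 0.19.

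The mean log2 level over the 9 targets gave a single value per library, used here only as a description. In OPCs it was 3.38, 3.65 and 4.49 in control and 2.68, 2.90 and 2.86 in null clones. On day 2 it was 3.32, 3.71 and 3.84 in control and 3.23, 3.11 and 3.12 in null clones, and at DIV4 it was 3.97, 4.15 and 4.36 in control and 2.87, 3.08 and 2.99 in null clones. The control clones were above the null clones at each stage, by least at DIV2, and D7 was the lowest control clone throughout. This mean includes Eda2r, which was at most 0.363 rescaled TPM in null libraries and at 6.9 in the control D7 OPC library. Eda2r thus widens the gap between genotypes in the mean. The mean without Eda2r was not taken, so the gap cannot be read as shared by the other targets.

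**Figure D4:**
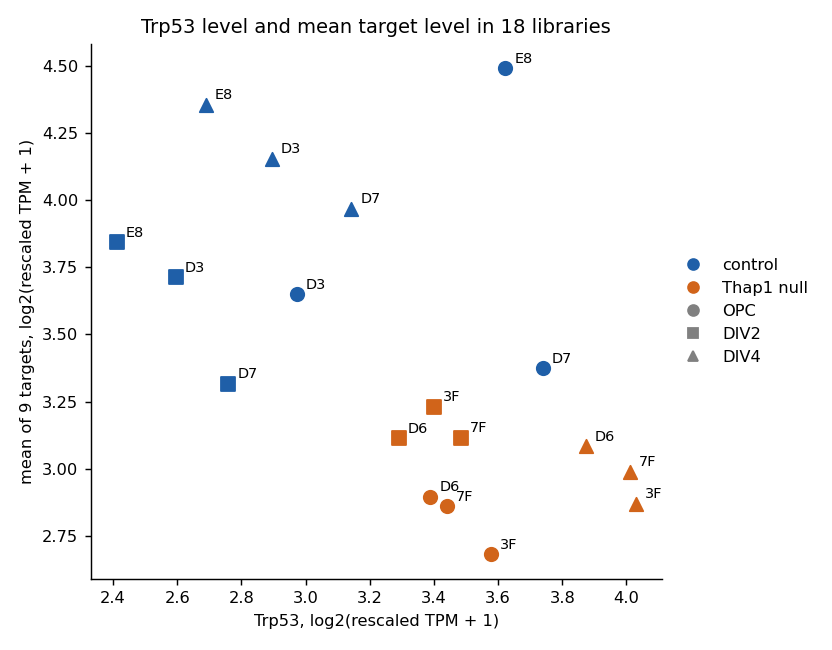
Mean log2(rescaled TPM + 1) of the 9 targets against that of Trp53 in the 18 libraries, coloured by genotype and shaped by stage, with the clone written beside each point. Null libraries lie at or below 3.23 on the target axis and control libraries at or above 3.32. The target axis includes Eda2r, which was tested only through its control libraries, and this split was not examined without it. The null libraries at DIV4 have the highest Trp53 values. The control libraries at DIV2 and DIV4 have lower Trp53 and higher target values than the null libraries of the same stage.

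Within groups, the members were compared by how they deviated from their group means over the 18 libraries. Among the 36 pairs of targets the median Pearson r was 0.338, and 33 pairs were positive. Much of that came from the control D7 and E8 OPC libraries, which lie farthest out: without them the median was 0.084 and 21 pairs were positive. Trp53 had a median r of -0.201 with the 9 targets, 4 of them positive. Outside the members, the genes most like the target mean were Pigt (r 0.896, Spearman rho 0.837), Sbno2 (0.895 and 0.839), Faf1 (0.891 and 0.810), Lzic (0.891 and 0.798) and Npepl1 (0.890 and 0.872). Most like Trp53 were Morc2a (r 0.946, rho 0.934), Cog1 (0.938 and 0.905), Dhx33 (0.936 and 0.870), Mafg (0.926 and 0.924) and Ewsr1 (0.918 and 0.808). Without the 2 farthest libraries r was 0.734 to 0.842 for the first 5 genes and 0.815 to 0.912 for the second 5. Libraries of a group share their scaling across genes, so such values describe these libraries only.

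A wider list of 40 other p53 targets, 32 of them tested, was read in the same way. In OPCs 1 was called higher and 4 lower, against the 12% of all genes, with a median change of -0.40. Sesn2, a stress-induced sestrin, was lower there by a log2 change of -2.34 (adjusted p = 0.0102), as were Ak1 (-1.69, adjusted p = 0.00978), which encodes adenylate kinase, and Aen (-1.57, adjusted p = 0.00701), an apoptosis-linked nuclease. Dcxr was the other gene called lower, and Rps27l was higher (0.54, adjusted p = 0.0381). When the E8 OPC library was left out Sesn2, Ak1 and Aen were called, all lower, and the median over the list was -0.155. At DIV2 Steap3, an iron reductase, was higher in null clones (1.69, adjusted p = 0.00546). At DIV4 Psrc1, a spindle protein, and Rps27l were lower (-1.98 and -0.76, adjusted p = 0.0471 and 0.0141). Rps27l shares 16.1% of its 31-base words with other transcripts and is uncertain. Over all stages none of the 32 was called by limma, with 12 at an unadjusted p under 0.05.

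Cdkn1a, the cell-cycle inhibitor p21 and the target most often used to read p53, did not follow the members at the later stages. It was at 4, 1.4 and 21.1 rescaled TPM in control and 0.905, 0.777 and 1.3 in null OPCs, at 1.03, 1.9 and 3.2 against 3.7, 2.14 and 3.12 at DIV2, and at 2.69, 5.79 and 5.99 against 5.84, 8.04 and 7.05 at DIV4. Every null clone was below every control clone in OPCs, and the groups overlapped afterwards. Its log2 change was -1.70 in OPCs (SE 0.565, adjusted p = 0.0648) and -0.805 there without the E8 OPC library (adjusted p = 0.199), 0.43 at DIV2 (adjusted p = 0.811) and 0.50 at DIV4 (adjusted p = 0.681), and Cdkn1a rose in null clones from OPC to DIV4 by 2.00 (adjusted p = 0.0137). Sesn2 also rose there, by 2.53 (adjusted p = 0.00173), and its change differed between genotypes by 3.06 (SE 0.728, adjusted p = 0.0403; 2.81 and 0.0802 without the E8 OPC library), while Rps27l differed by -1.30 (adjusted p = 0.0111).

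The wider targets were also read by stage. Against OPCs, 17 of 32 were called at DIV2 and 12 at DIV4 in control clones, and 14 and 15 in null clones, that is 53.1%, 37.5%, 43.8% and 46.9% of the list beside 35.0%, 32.2%, 27.9% and 33.3% of all genes. Gadd45a, a growth-arrest gene, was higher by 1.99 to 2.31 in all 4 of these comparisons, although 17% of its 31-base words are shared with other genes, most with an antisense transcript. The largest falls were in Psrc1, Gtse1, Ckap2 and Btg2, for example Btg2, an antiproliferative gene, by -2.70 in control and -2.57 in null clones at DIV2. Ckap2 shares 10.3% of its 31-base words with other genes and is uncertain.

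Genes that regulate p53 were read from a list of 22, of which 20 were tested. In OPCs 4 were higher in null clones and 1 lower, 25% of the list against 12% of all genes: the checkpoint kinases Chek2 (1.17, adjusted p = 0.0218) and Atr (0.76, adjusted p = 0.0115), Atm, the ribosomal gene Rpl5 (1.30, adjusted p = 0.04), which shares 50.4% of its 31-base words with other transcripts, and the methyltransferase Prmt5 (-0.47, adjusted p = 0.0468). Chek2, Atm and Prmt5 lost the call without the E8 OPC library (adjusted p = 0.0723, 0.052 and 0.106), and Rpl5 was then higher by 0.61. At DIV2 and DIV4 limma called none of the 20, with 3 and 2 at an unadjusted p under 0.05, against 2.80% and 4.81% of all genes. Mdm4, the partner of MDM2 that blocks p53, was at 7.96 ± 0.996 in control and 9.65 ± 1.58 rescaled TPM in null OPCs and at 8.72 ± 1.53 and 9.16 ± 0.99 at DIV4 (SD, n = 3), without a call. Mdm4 shares 13.8% of its 31-base words with other genes, most with Mdm4-ps, and is uncertain. Cdkn2a, whose ARF product frees p53 from MDM2, was at 25.9 ± 5.17 and 37 ± 6.68 in OPCs and 27 ± 7.87 and 30 ± 1.38 at DIV4, also without a call. Trp73, a p53 relative that shares target genes, was listed at 0 in every OPC library.

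Markers of cell state moved with some of these groups, and their part in the members' changes was not tested. All 24 genes of a cell-cycle list had a higher value in null than in control OPCs (median 0.77), and so had all 24 at DIV2 (median 0.55), while at DIV4 all 24 had a lower value (median -0.44). None was called by limma at any of the 3 stages, with 3, 2 and 0 at an unadjusted p under 0.05. Control clone D3 stood apart in OPCs, with a mean log2 level of 2.10 over these 24 genes. Control D7 and E8 OPCs were at 5.35 and 5.15, above the null OPC libraries at 4.87 to 5.14. In this mean the higher OPC level of null clones thus rested on D3, also the lowest OPC library for Trp53. The summed level of 15 oligodendrocyte markers was 213 to 1170 rescaled TPM in control and 495 to 741 in null OPCs, and 3030 to 14900 in control and 2710 to 3730 in null clones at DIV4. The summed level of 12 OPC markers was 743 to 1040 in control and 550 to 676 in null OPCs. Astrocyte markers summed to 62.4 to 597 over all libraries, with Gjb6 at 0 in 5 of the 6 groups, neuronal markers to 67.7 to 159, microglial markers to at most 6.57 with C1qa and C1qb at 0, and mesenchymal markers to at most 2.57. In such bulk libraries fewer cells of a type and less RNA per cell cannot be told apart.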

How the data were processed

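RNA was measured in 18 libraries, prepared from total RNA by a stranded protocol after depletion of ribosomal RNA, per the labels' protocols. The authors deposited TPM, 1 value per transcript and library for 93666 transcripts, each library summing to 1000000. STAR, Picard and the build mm10 are named in the submitters' processing notes, and the quantifier and annotation are not given in the sources used here. The deposited transcript lengths carry no stated unit (other) and were not used. TPM keeps no depth, so no counting error can be given.

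Transcript TPM was summed by gene symbol, after 25 symbols turned into dates were restored through transcript identifiers. Of these identifiers 96.5% were found in GENCODE M21 on GRCm38, which gave positions, biotypes and 31-base words. A gene sharing at least 10% of its words with other genes is called uncertain. Gene sums were divided by median-of-ratios factors from 11432 genes, which assumes that most genes do not change. limma 3.58.1 in R 4.3.3 was fitted to log2(rescaled TPM + 1) of all 18 libraries with a mean trend, for 12473 genes with a mean of at least 1, and called at a Benjamini-Hochberg adjusted p under 0.05. Changes on this scale understate those of low genes. The same fit was tested on simulated data. Python 3.11.15, pandas 2.3.3 and scipy 1.17.1 were used for sequences and summaries.

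Samples were grouped by the labels, and a clone is the replicate. Libraries of 1 clone are the same cell line, so clone numbers pair the stages within a genotype. Their deviations from group means had a mean r of 0.119, and those of different clones -0.059. The deviations of a group sum to 0, so the second value largely follows from the first and is no separate reference. The member genes, the gene lists, the tests and most alternatives were chosen with earlier results of these data known. The genes named are the 10 members, then Cdkn1a, Mdm4, Cdkn2a and Trp73, the 3 largest called rises and falls of 2 wider lists in each comparison, of which examples are given, and the 5 genes most alike; Atm and Dcxr complete a count. Alternatives were other scalings, pseudocounts, filters, fits, blocks and left-out clones. Coding transcripts alone and leaving out the E8 OPC library were added after the data were seen.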

Additional observations from a re-analysis of the deposited data

Results flagged for a closer look

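The change of Trp53 from OPC to DIV4 differed between genotypes by 1.04 on the log2 scale of rescaled TPM (SE 0.249, limma interaction, adjusted p = 0.0408). Trp53 was lower at DIV4 in each of the 3 control clones and higher in each of the 3 null clones than in the OPC library of the same clone. In control clone D3 the fall was small, from 6.85 to 6.43 rescaled TPM. It was brought out because the difference itself was tested and passed. The call was lost without control clone E8 (0.84, adjusted p = 0.149) and without null clone 3F, D6 or 7F (1.06, 1.05 and 1.005, adjusted p from 0.145 to 0.282). In deposited TPM the difference was -0.815, where the median gene's was -1.68. Relative to the median gene it was 0.86, a step close to the rescaling itself and no separate check.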

How the results depend on the processing

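The 28 called member changes gave 453 values under the alternatives: 322 kept direction and call, 122 kept direction but lost the call, and 9 reversed. In deposited TPM 8 reversed: null against control OPCs became 1.07 for Mdm2, 0.91 for Ccng1 and 1.01 for Bax, control DIV2 against OPC became 1.40 for Trp53 and 0.345 for Eda2r, control DIV4 against OPC became 1.77 for Trp53, the Trp53 difference of changes from OPC to DIV4 became -0.815, and Mdm2 over all stages became 0.065. Relative to the median gene of the same deposited comparison all 8 kept the reported direction: Mdm2 -0.44, Ccng1 -0.60 and Bax -0.49 in OPCs, Trp53 -0.56 and Eda2r -1.615 at DIV2, Trp53 -0.25 at DIV4, the Trp53 difference 0.86, and Mdm2 over all stages -0.33. Taking off the median gene's change is close to the rescaling itself. The kept directions were thus largely fixed beforehand and are no separate check of the scaling. With protein-coding TPM the Trp53 change from OPC to DIV4 in control clones became 0.031. The deposited values hold the noncoding RNA of the control OPC libraries, and the cause of the other shifts was not tested.

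Counts of members called changed as follows, and calls over all genes changed with many of these settings too. Where no share of all genes stands beside a count, it cannot be read as particular to the members. For null against control they were 4 in OPCs, 1 at DIV2, 6 at DIV4 and 4 over all stages. With deposited TPM they were 7 in OPCs (81.0% of all genes), 0 at DIV2 and 3 at DIV4 (2.78% of all genes). A fit to only the groups compared gave 1 in OPCs and 2 at DIV4. A pseudocount of 0.1 gave 2 at DIV2, and no filter or no trend gave 1 each over all stages. Leaving out each clone gave 2 to 7 in OPCs, 0 to 2 at DIV2, 0 to 6 at DIV4 and 0 to 7 over all stages.

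In control clones from OPC to DIV2 the count was 2 and became 9 with deposited TPM, 4 with protein-coding TPM, 1 with no filter, 1 with a mean of at least 5, 0 with only the groups compared and 1 to 2 without each clone. From OPC to DIV4 it was 3 and became 10 with deposited TPM, 5 with protein-coding TPM and 5 with coding transcripts. It became 0 with no filter, 0 with only the groups compared and 0 to 4 without each clone. Without the E8 OPC library it became 5, against 26.4% of all genes. From DIV2 to DIV4 it was 0 and became 1 with deposited TPM. In null clones the count was 3 from OPC to DIV2 and became 5 with only the groups compared, 5 with clone as a fixed replicate block and 1 to 4 without each clone. From OPC to DIV4 it was 3 and became 5 with protein-coding TPM, 6 with only the groups compared and 0 to 4 without each clone. From DIV2 to DIV4 it was 0 and became 4 with only the groups compared, 1 with the replicate block, 1 without the E8 OPC library and 0 to 2 without each clone. A random replicate block for the clone kept all 11 member calls between genotypes.

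Differences of changes were called for 0 members at DIV2 (8 with deposited TPM, where 72.6% of all genes were, and 0 to 1 without each clone) and 1 at DIV4. The latter became 8 with deposited TPM, and 0 with protein-coding TPM, with no filter, with only the groups compared and without the E8 OPC library, and 0 to 1 without each clone. Among control clones 1 member differed, and this became 0 with deposited TPM, 2 with protein-coding TPM, 0 with a mean of at least 5, 0 without DIV2, 0 without DIV4 and 3 with coding transcripts. Where an arm keeps 2 clones, its spread is taken from all groups. Depth is unknown, so it cannot be said which low values, such as those of Eda2r in null clones, are limited by it.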
